A study of Mus musculus with 6 samples.

Results

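Microexons, the shortest exons that the splicing machinery recognises, were described in N2a (Neuro-2a), a neuroblastoma line of the mouse. All skipped-exon events whose alternative exon was 3 to 27 bases long were taken, in all genes. There were 525 such events among 33100 skipped-exon events. They stood for 475 distinct exons in 418 genes, because 50 events were further entries of an exon already listed with other neighbouring exons. In the study, 3 libraries came from wild-type N2a cells and 3 from N2a cells labelled as knocked out for hnRNP DL, a heterogeneous nuclear ribonucleoprotein. No agent, time point or knockout method is given in the labels, nor whether the knockout line is 1 clone. The deposited splicing table holds 2 sets of 3 libraries, and neither its headers nor the labels tie a set to a genotype. They are named set 1 and set 2 here, and every difference is set 1 minus set 2.

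A microexon is so short that splicing factors which bind within longer exons have little room on it, and its use depends largely on sequences in the introns beside it. In neurons the protein SRRM4, helped by its relative SRRM3, binds upstream of many microexons and switches them on, while PTBP1 keeps many of them skipped in other cells. Many microexons keep the reading frame and add a few residues at the surface of a protein domain, often in proteins of the cytoskeleton, of vesicle traffic and of synapses. The measure used throughout is the inclusion level, the share of transcripts with a given pair of neighbouring exons that contain the exon between them. An exon listed with several pairs of neighbours has a level for each, and these can differ. The level was taken from reads on the splice junctions of the inclusion and of the skipping form, each divided by the length of that form. It runs from 0 to 1.

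Sequences of exons on which the results turn are shown first, in capitals, with 12 bases of the neighbouring exons in the spliced transcript in lower case, 5′ to 3′ on the gene's strand, from GENCODE vM21 transcripts (GRCm38, the assembly of mm10). The first group holds coding exons whose level was lower in every library of set 1 than in any of set 2, from the 18-base exon of the neuronal form of the kinase Src (chr2:157458843-157458860, plus strand) to Adgrl1 (chr8:83926262-83926276, plus), Arvcf (chr16:18400781-18400798, plus) and the 6-base exon of Taf1 (chrX:101590734-101590739, plus).
Src: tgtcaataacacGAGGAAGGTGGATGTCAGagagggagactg
Adgrl1: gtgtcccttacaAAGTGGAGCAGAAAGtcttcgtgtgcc
Arvcf: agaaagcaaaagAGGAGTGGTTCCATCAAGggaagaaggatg
Taf1: tatacacctcagGCTAAGcctcctgatttg

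The second group holds coding exons with the opposite order of the sets, Mark3 (chr12:111651958-111651984, plus), Trappc13 (chr13:104152165-104152182, minus), Picalm (chr7:90194273-90194296, plus) and the 6-base exon of Nsfl1c (chr2:151502455-151502460, plus).
Mark3: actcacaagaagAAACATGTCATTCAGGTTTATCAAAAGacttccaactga
Trappc13: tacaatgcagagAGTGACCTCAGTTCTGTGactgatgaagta
Picalm: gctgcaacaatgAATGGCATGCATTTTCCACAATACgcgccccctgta
Nsfl1c: ggagggacagagGAGCAGgttttatgctgg

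The third group pairs exons of equal length in related genes, shown because the pairs read alike and their levels need not. They are Eif4g1 (chr16:20674786-20674806, plus) with Eif4g3 (chr4:138095909-138095929, plus), Clasp1 (chr1:118541675-118541698, plus) with Clasp2 (chr9:113878750-113878773, plus), and Ank2 (chr3:127052226-127052249, minus) with Ank3 (chr10:69823078-69823101, plus).
Eif4g1: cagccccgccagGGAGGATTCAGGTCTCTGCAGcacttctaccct
Eif4g3: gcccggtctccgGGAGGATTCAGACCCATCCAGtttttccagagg
Clasp1: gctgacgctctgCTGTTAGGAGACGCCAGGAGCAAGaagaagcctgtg
Clasp2: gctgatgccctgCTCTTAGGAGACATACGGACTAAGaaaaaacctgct
Ank2: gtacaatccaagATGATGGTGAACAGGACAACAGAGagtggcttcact
Ank3: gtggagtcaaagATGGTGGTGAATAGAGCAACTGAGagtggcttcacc

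Set 1 held 129343, 106359 and 103546 junction reads of microexon events in its libraries 1 to 3, and set 2 held 138915, 107043 and 102725. A read can count in several events. The median event had a mean of 69.2 reads per library, and means ran from 0.333 to 21800 reads. A mean of 20 reads over the 6 libraries was the minimum for further analysis, which left 382 events of 367 exons in 325 genes. Each exon is represented by its most covered event. The labels do not say whether libraries came from separate cultures, so p-values measure only the spread between these libraries. Of 20 listed markers of neuroblastoma and sympathetic neurons, 8 had a splicing event in the table. All 8 had a mean of 20 or more reads over the 6 libraries. No listed marker of fibroblasts, immune cells, glia, endothelium or epithelium reached that count. The highest of those with an event had a mean of 7.67 reads.

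The libraries of set 1 were not alike in their microexons. Exons with a mean level from 0.10 to 0.90 are called middle-level exons here. The next comparison uses the 117 such microexons of a length divisible by 3. Library 1 of set 1 differed from the libraries of set 2 by a median of 0.053, 0.060 and 0.056 in level. It differed from the other libraries of its own set by more, by 0.075 and 0.080. Several results are therefore given with and without this library. The counts of non-overlapping sets and those over listed genes use all 6 libraries.

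Microexons kept the reading frame far more often than longer exons. Of the 367 exons, 278 had a length divisible by 3, which was 75.7% (95% Wilson interval 71.1 to 79.9%). Keeping the frame means such a length throughout, whatever the annotation, and 255 of the 278 were coding. Among 23876 skipped exons of 28 to 300 bases the share was 40.5% (39.9 to 41.1%). Intervals cover counting error only. The share depended on how the exon was used: 90.7% (84.4 to 94.6%) of the 129 middle-level microexons kept the frame, against 61.0% (52.8 to 68.7%) of the 141 with a level over 0.90. For the 97 microexons under 0.10 it was 77.3% (68.0 to 84.5%). In longer exons the share of middle-level exons was 52.3% (50.3 to 54.2%).

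Lengths of 24 and 27 bases were the most common, with 55 and 56 exons, followed by 38 exons of 18 bases and 36 each of 12 and 21 bases. Only 3 exons of 3 bases had enough reads, those of Cyth2, Mon2 and Ncam1, and all 3 had mean levels under 0.10. The 3-base exon of Mon2, a regulator of Golgi traffic, reads AAG and had a mean level of 0.023. That of Cyth2, an exchange factor for ARF GTPases, reads GAG and had a mean level of 0.039. Among exons of 3 to 9 bases that kept the frame, 9 of 26 were middle-level, against 43 of 105 at 10 to 18 bases and 65 of 147 at 19 to 27 bases.

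**Figure D1:**
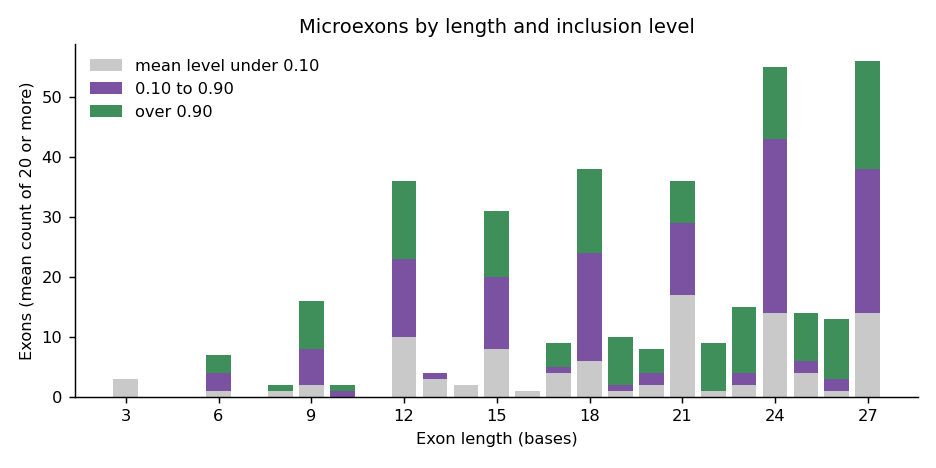
Number of microexons (y axis) at each length in bases (x axis) among the 367 exons with a mean count of 20 or more, with colours for the mean inclusion level over 6 libraries. Lengths divisible by 3 stand above their neighbours, and the middle-level exons (0.10 to 0.90) sit almost wholly in them, 117 of 129.

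All 525 events matched the ends of an exon annotated in GENCODE vM21. By annotation 447 were coding, 30 lay in a UTR, 23 were coding in part and 25 belonged to noncoding transcripts. Among the 367 exons, 88.0% were coding, against 82.6% of the longer exons. Their flanking introns were shorter, with medians of 1407 bases upstream and 1384 bases downstream against 1714 and 1627. Microexons were also richer in A (30.7% of bases against 26.5%) and lower in GC (47.9% against 50.3%). The last 2 bases were AG, the letters that commonly end an exon, in 59.4% of microexons and 52.9% of longer exons. These differences in sequence and introns are descriptions and were not tested.

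Microexons spread over the whole range of inclusion, which longer exons did not. Every microexon event held reads of both forms, so microexons always or never included in these libraries are absent from the shares. Over the 6 libraries 97 of 367 (26.4%) had a mean level under 0.10, 129 (35.1%) lay from 0.10 to 0.90 and 141 (38.4%) were over 0.90. Of the longer exons 10.7% were middle-level and 80.8% were over 0.90. The spread came from the exons that keep the frame, of which 42.1% were middle-level and whose median level was 0.479. Microexons of other lengths were mostly included, with 61.8% over 0.90 and a median of 0.977. Near the length limit the middle-level share was higher at the lengths that keep the frame. Just inside, 24 of 56 exons of 27 bases were middle-level (42.9%), with 2 of 14 at 25 bases (14.3%) and 2 of 13 at 26 bases (15.4%). Just outside it were 3 of 18 exons of 28 bases (16.7%) and 20 of 66 exons of 30 bases (30.3%). Frame-keeping exons a little longer than microexons were spread as well. At 28 to 33 bases 46 of 138 were middle-level (33.3%), with a median level of 0.579. The share was 27.8% at 34 to 39 bases and 22.5% at 40 to 60 bases, a gradual fall with length.

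**Figure D2:**
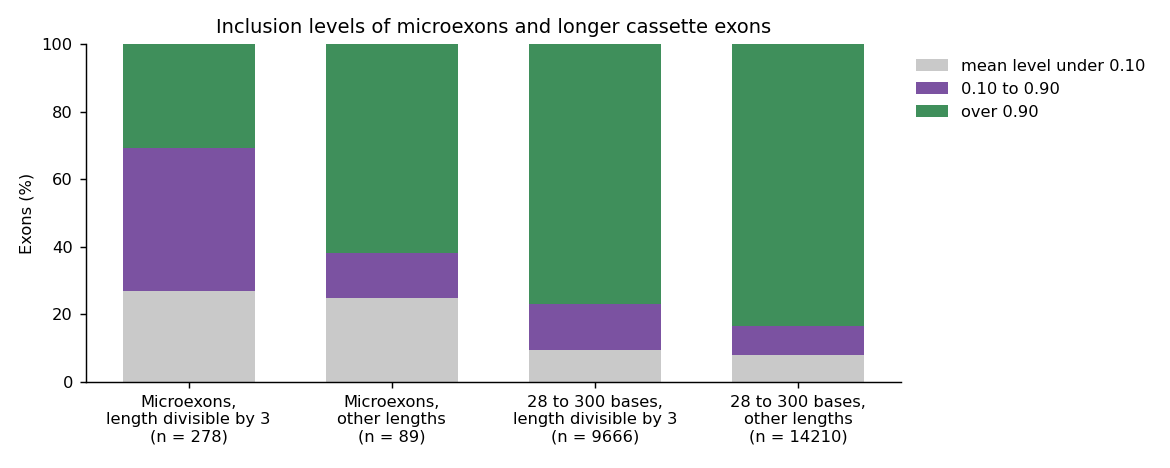
Share of exons (y axis, %) with a mean inclusion level under 0.10, from 0.10 to 0.90 and over 0.90, for microexons and for skipped exons of 28 to 300 bases, each split by whether the length is divisible by 3. The middle-level share was 42.1% in frame-keeping microexons, 13.5% in other microexons, 13.8% and 8.56% in the longer exons.

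The study set hnRNP DL knockout cells against wild-type cells, and the comparison here is of set 1 with set 2, whose genotypes the table does not give. Frame-keeping microexons of middle level leaned towards lower inclusion in set 1. Their median level was 0.449, 0.402 and 0.411 in the libraries of set 1 and 0.469, 0.473 and 0.433 in those of set 2. The mean level was lower in set 1 for 84 of the 117 exons (71.8%) and higher for 33, with a median difference of -0.029. Over all middle-level skipped exons 45.3% were lower in set 1, and over the 1332 frame-keeping exons of 28 to 300 bases 596 were lower and 736 higher, with a median difference of 0.008. That contrast rests in part on library 3 of set 2, without which 705 of the longer exons were lower and 627 higher (median difference -0.004), while 87 of the 117 microexons were lower. The sets overlap in library 1 of set 1, which lay above the exon's mean level for 76 of 117 exons, whereas libraries 2 and 3 lay below it for 84 and 77. Without library 1 of set 1, 92 of 117 exons were lower in set 1, and without library 2 of set 1, 72 were.

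These counts are descriptions: the exons share their libraries, so no p-value is given for them. Neuronal markers varied between libraries. Junction totals of Gap43, a growth-cone protein of neurons, were 409.0, 142.0 and 112.0 CPM (reads scaled to library totals) in set 1 and 417.0, 404.0 and 279.0 CPM in set 2, so that library 1 of set 1 lay with set 2 (limma adjusted p = 0.339). Those of Dbh, the enzyme that makes noradrenaline, were 4.17, 1.42 and 1.23 CPM in set 1 and 16.1, 14.3 and 13.8 CPM in set 2 (log2 ratio -2.37 ± 0.34 SE, limma adjusted p = 0.00349). These totals rest on 21, 6 and 5 reads in set 1 and 88, 61 and 56 in set 2. Dbh thus reached the minimum count only through set 2, and its ratio is imprecise. Summed over the 8 measured neuroblastoma markers, totals ran from 592.0 to 912.0 CPM in set 1 and from 817.0 to 966.0 CPM in set 2, a range carried mainly by Gap43, and Dbh was the only 1 of the 8 to pass. Chga, Elavl3 and Elavl4 had log2 ratios of -0.01, -0.16 and 0.02, and Map2 had 0.28. Gata2 was lower in every library of set 1, at 90.7, 95.7 and 90.8 CPM against 138.0, 129.0 and 121.0 CPM. Its log2 ratio was -0.48 ± 0.11 (SE, limma adjusted p = 0.0686). Isl1 had a log2 ratio of -0.36 ± 0.23 (SE) with overlapping sets. The part of these markers in the microexon levels was not tested. In bulk RNA, fewer cells of a type and less RNA per cell cannot be told apart.

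**Figure D3:**
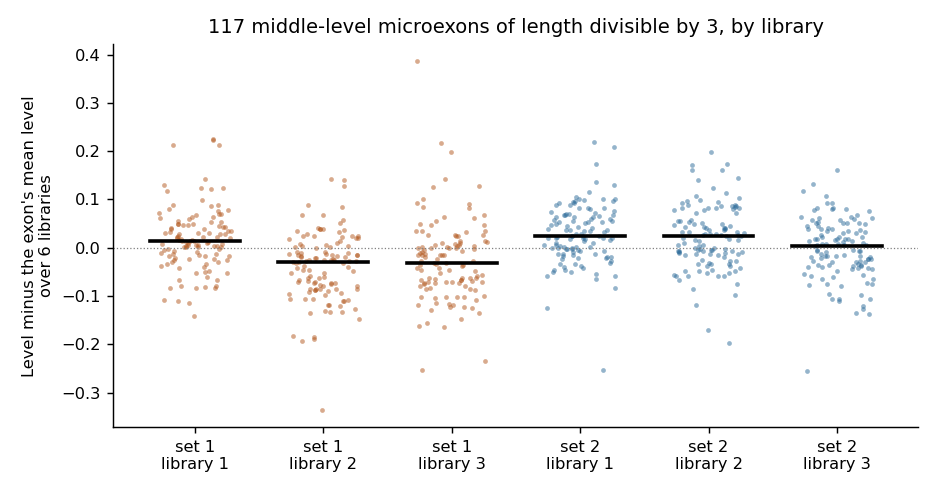
Level of each of 117 middle-level, frame-keeping microexons in each library minus that exon's mean over 6 libraries (y axis), by library (x axis), with a bar at the median. The medians were 0.014, -0.029 and -0.032 in set 1 and 0.025, 0.025 and 0.004 in set 2.

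Few single microexons passed a test. A quasi-binomial test, which compares the inclusion and skipping reads of the sets against the spread between libraries, called 1 of 382 microexon events. A call needs an adjusted p below 0.05 together with a level difference of at least 0.10. Over all 39419 events tested it called 0.0279%. At an unadjusted p under 0.05 there were 24 microexon events (6.28%), against 3.81% of all events, and 15 of the 24 were lower in set 1. This count was 43 without library 1 of set 1 and 13 without library 2 of set 1. Middle-level exons, with 1 event per exon, lay closer to their background. There 13 of 129 microexons and 226 of all 2813 skipped exons had an unadjusted p under 0.05. Limma on logit levels called no microexon event and 0% of all events, with 27 microexon events (7.07%) at an unadjusted p under 0.05, against 3.3% of all events. By the same limits on the authors' own p-values, their deposited table calls 10 of 525 microexon events (1.90%), against 0.677% of all skipped-exon events. Of those 10, 6 were lower and 4 higher in set 1, and 4 had a mean count under 20 reads (3.8 to 14.3), with differences from -0.515 to 0.386.

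Non-overlapping sets were counted as well. Set 1 was wholly below set 2 for 22 of 367 microexons (5.99%), against 1.78% of all skipped exons. It was wholly above for 13 (3.54%), against 3.12%. Among middle-level exons, where levels can move both ways, the counts were 10 lower of 129 microexons (7.75%, against 4.55% of all middle-level skipped exons) and 5 higher (3.88%, against 7.39%). All 15 of these had a length divisible by 3, though the exons of Gnas and Ckap5 are annotated as noncoding and that of Rps24 as coding in part.

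The microexon event that was called lies in Eef1d, which encodes a subunit of translation elongation factor 1. This 15-base exon (chr15:75905886-75905900, minus strand) is annotated as UTR in other transcripts, and no annotated transcript joins it to the neighbours of the called event. Its inclusion reads were 69, 18 and 25 in set 1 and 126, 128 and 65 in set 2, beside 349, 377 and 245 skipping reads in set 1 and 336, 276 and 190 in set 2. The levels of 0.153, 0.042 and 0.085 in set 1 were all below those of 0.255, 0.298 and 0.238 in set 2, a difference of -0.170 (quasi-binomial test, adjusted p = 5.03e-05). The call is not firm. The dispersion between libraries of this event was 9.07 and the common value used by the test was 3.23, the limma adjusted p was 0.787, and the adjusted p was 0.18 without library 2 of set 1. The exon has 2 further events with other neighbouring exons, and in the most covered of the 3 its level was 0.996 or higher in all libraries. In the least covered, with a mean of 24.7 reads, mean levels were 0.374 and 0.602 and the sets overlapped.

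Gnas, the gene of the stimulatory G protein alpha subunit, held a 24-base exon whose sets were far apart for their spread. This exon (chr2:174328108-174328131, plus strand) is annotated in noncoding transcripts of the locus. Its levels were 0.429, 0.427 and 0.446 in set 1 and 0.580, 0.599 and 0.596 in set 2, and the mean count was 583.5 reads. No library of one set came near the other, with means of 0.434 ± 0.010 and 0.592 ± 0.010 (SD, n = 3 each). The difference of -0.158 did not pass the quasi-binomial test (adjusted p = 0.0919) or limma (adjusted p = 0.103), while its adjusted p in the authors' deposited table is 4.74e-06. In its other 2 events, with other neighbours, mean levels were 0.918 and 0.933, and 1.0 and 0.99.

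In translation, the 21-base coding exon of Eif4g1 lay lower in set 1. Eif4g1 encodes the scaffold that joins the cap-binding factor to the ribosome, and its neuronal microexon is a known target of the SRRM4 programme. Levels were 0.423, 0.288 and 0.356 in set 1 and 0.455, 0.466 and 0.460 in set 2. Set 1 was spread over a wider range and did not reach set 2. The difference of -0.105 rested on a mean of 1086.3 reads per library and did not pass (quasi-binomial adjusted p = 0.485). It was -0.138 without library 1 of set 1 (adjusted p = 0.0678) and -0.071 without library 2 of set 1 (adjusted p = 0.847).

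Exons of 4 genes of surface and junction proteins, picked after their values were seen, follow, each with a lower mean level in set 1. They are not all such exons. Named exons of the receptor phosphatases had small differences with overlapping sets, -0.021 and -0.005 in Ptprf and -0.039 and 0.006 in Ptprs. Adgrl1 encodes latrophilin 1, an adhesion receptor of synapses, and its 15-base exon had levels of 0.346, 0.266 and 0.341 in set 1 and 0.422, 0.571 and 0.448 in set 2. Arvcf, a catenin that binds cadherins, had levels of 0.404, 0.335 and 0.299 against 0.485, 0.431 and 0.466 at its 18-base exon. The sets were apart in both, by a difference in means of -0.163 and -0.115, and neither passed (quasi-binomial adjusted p = 0.745 for each). The 3-base exon of Ncam1, the neural cell adhesion molecule (chr9:49531974-49531976), had 0, 1 and 0 inclusion reads in set 1 and 11, 10 and 4 in set 2. Its levels were 0.0, 0.039 and 0.0 against 0.188, 0.198 and 0.073, and the mean count was 38.5 reads. No annotated transcript joins this exon to the neighbours of the event, and the difference did not pass (quasi-binomial adjusted p = 0.745). A 21-base exon of Tenm3, a teneurin that guides neuronal connections, singled out after its values were seen, lay at 0.2, 0.170 and 0.137 against 0.233, 0.236 and 0.217.

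Among kinases, Src and Mast3 lay lower and Mark3 higher in set 1. The 18-base Src exon adds residues to the SH3 domain in the neuronal form of the enzyme. It had 2, 4 and 1 inclusion reads in set 1 and 5, 4 and 4 in set 2, and levels of 0.114, 0.130 and 0.035 against 0.209, 0.230 and 0.174. The sets do not overlap, but the mean of 21.5 reads per library leaves each level imprecise. Mast3, a microtubule-associated kinase, had levels of 0.173, 0.112 and 0.074 against 0.269, 0.216 and 0.209 at its 21-base exon, again with no overlap. Mark3, which phosphorylates microtubule-associated proteins, had the largest positive difference among exons whose sets do not overlap. Its 27-base exon was included at 0.314, 0.418 and 0.547 in set 1 and at 0.271, 0.212 and 0.219 in set 2. The difference of 0.192 did not pass (quasi-binomial adjusted p = 0.304). Without library 1 of set 1, its lowest, the difference was 0.248 with an adjusted p of 0.0397.

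Named exons in genes of vesicle and membrane traffic, grouped after their values were seen, lay either way. Lower means in set 1 included those of Ergic3 (difference -0.069), Asap1 (-0.072), Madd (-0.024) and both Mon2 exons (-0.016 and -0.024). Of these, all but the 18-base Mon2 exon had overlapping sets. Higher means with overlapping sets included those of Trappc9 (0.031) and Ap1s2 (0.005), and 3 higher ones with sets apart follow. Trappc13, part of the TRAPP complex that tethers vesicles, had levels of 0.475, 0.480 and 0.578 in set 1 and 0.388, 0.399 and 0.393 in set 2 at its 18-base exon. Picalm, a clathrin assembly protein, had levels of 0.456, 0.470 and 0.504 against 0.415, 0.368 and 0.399 at its 24-base exon. Nsfl1c, the p47 cofactor of a membrane fusion ATPase, had levels of 0.937, 0.911 and 0.918 against 0.852, 0.892 and 0.851. The sets were apart in all 3, and none passed, with quasi-binomial adjusted p-values of 0.745, 0.745 and 0.541. In the nearly always included 23-base exon of Dtnbp1 (dysbindin) mean levels were 0.983 and 0.951, and in the 18-base exon of the cytoskeletal linker Macf1 they were 0.965 and 0.907. A 23-base exon of 2700062C07Rik, called in the authors' deposited table, had levels of 0.927, 0.988 and 1.0 against 0.932, 0.942 and 0.728, and these overlap.

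Further middle-level exons whose sets were apart and which lay lower in set 1, singled out after their values were seen, were those of Ckap5, Abi2 and Taf1. Ckap5, a microtubule polymerase, had mean levels of 0.550 and 0.655 at a 24-base exon annotated in noncoding transcripts. Abi2, of the WAVE complex that drives actin branching, had 0.076 and 0.160 at an 18-base exon. The 6-base exon of Taf1, the largest subunit of the general transcription factor TFIID and a known neuronal microexon, had 0.081 and 0.165.

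**Figure D4:**
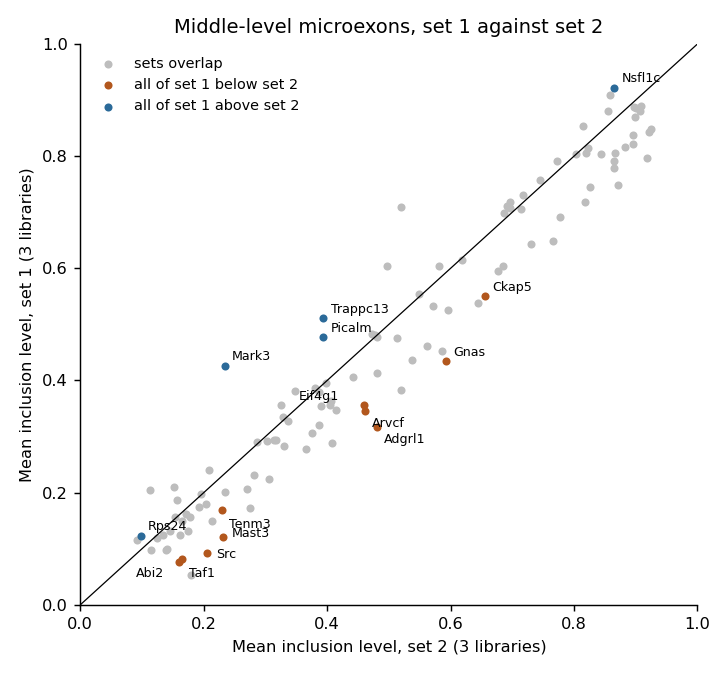
Mean inclusion level in set 1 (y axis) against set 2 (x axis) for the 117 middle-level, frame-keeping microexons, with a line of equality. Named points are the 15 exons whose sets do not overlap, 10 below the line and 5 above it, and 84 of all 117 lie below it.

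**Figure D5:**
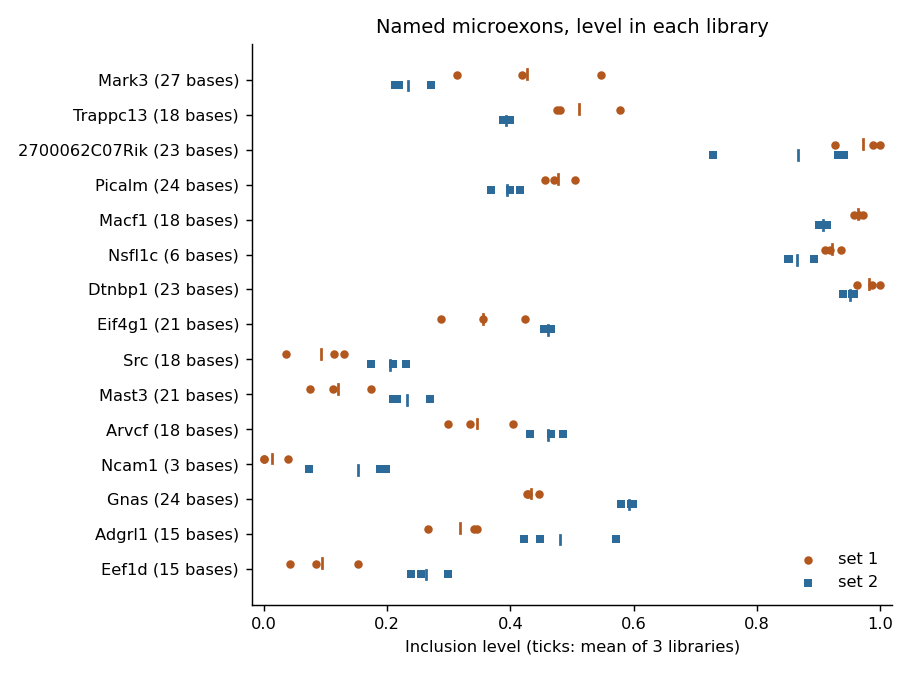
Inclusion level (x axis) of each named microexon in the 3 libraries of set 1 (circles) and the 3 of set 2 (squares), with ticks at the set means, for exons named by a call or by the size of their difference. Gnas lies at 0.427 to 0.446 in set 1 and 0.580 to 0.599 in set 2, and 2700062C07Rik is the exon whose sets overlap.

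Of the 12 most covered middle-level microexons, Gnas, Eif4g1 and Nsfl1c are described above, and others follow. In Rps24, a protein of the small ribosomal subunit, an 18-base exon that is coding in part had levels of 0.122, 0.125 and 0.122 in set 1 and 0.095, 0.106 and 0.094 in set 2. Its mean count was 2914.5 reads. The sets were apart by a difference of only 0.024. The 26-base UTR exon of Hnrnpc, a nuclear ribonucleoprotein, was included in about equal parts with its skipping form, at 0.520 to 0.561 over all libraries. Vps29, a subunit of the retromer that recycles membrane proteins, had levels from 0.380 to 0.410 at its 12-base exon, and Ewsr1, an RNA-binding protein, from 0.084 to 0.150 at an 18-base exon. The 24-base exon of the actin cross-linker Flna ran from 0.876 to 0.913. Idh3g of the citric acid cycle ran from 0.825 to 0.9, and the membrane-binding Anxa6 from 0.733 to 0.820.

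More spread was seen in Psap and Sptan1. Psap encodes the precursor of the lysosomal saposins, and its 9-base exon had levels of 0.426, 0.310 and 0.334 in set 1 and 0.433, 0.366 and 0.416 in set 2. Sptan1, the alpha spectrin of the membrane skeleton, had levels of 0.690, 0.531 and 0.564 against 0.725, 0.632 and 0.676 at its 15-base exon. In both, library 1 of set 1 lay with set 2 while the other libraries of set 1 were lowest, and the sets overlap.

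Of 50 listed genes, most of them known for microexons of neurons, 41 had a microexon event and 39 a tested one, 58 exons in all. Eef1d is on the list although its exon is annotated as UTR. With the most covered event for each exon, the quasi-binomial test called no exon among the 58; the called Eef1d event is a less covered event of 1 of them. Of these exons, 20 had a level under 0.10, 26 were middle-level and 12 were over 0.90. Among the 26, 21 were lower in set 1 and 5 higher, with a median difference of -0.045. Among the other 103 middle-level microexons 71 were lower, with a median difference of -0.020. The sets were apart in 5 of the 58 listed exons (8.62%), all lower in set 1. Set 1 was wholly below set 2 for 5.99% of all 367 microexons and for 1.78% of all skipped exons. The gene list was chosen with earlier results of these data known.

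Among those skipped in these cells were exons that define neuronal protein forms. The 12-base exon of the histone demethylase Kdm1a, whose inclusion makes the neuronal enzyme, had levels from 0.002 to 0.017. The 15-base exon of the endocytic scaffold Itsn1 ran from 0.0 to 0.014, and its skipping reads are shared with an 8-base form of the same exon. Agap1, a regulator of ARF GTPases, ran from 0.0 to 0.042 at 12 bases, and Ppp6r3, a phosphatase subunit, from 0.0 to 0.041 at 18 bases. These exons lie near 0 in both sets.

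Other listed exons were mostly included. The 6-base exon of Apbb1 (Fe65), an adaptor that binds the amyloid precursor protein, had levels of 0.979, 0.871 and 0.843 in set 1 and 0.942, 0.929 and 0.962 in set 2. The 15-base exon of Abi1 ran from 0.928 to 0.971, and the 27-base exon of Git1, a scaffold of focal adhesions, from 0.926 to 0.978. The 9-base exon of Ap1s2, of the clathrin adaptor AP-1, ran from 0.957 to 1.0.

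In between, several listed exons had a lower mean in set 1 while their libraries overlapped. Mef2d, a transcription factor of muscle and neurons, had levels of 0.844, 0.662 and 0.738 in set 1 and 0.872, 0.839 and 0.901 in set 2 at its 21-base exon (difference -0.123). Daam1, a formin that builds actin filaments, had 0.478, 0.494 and 0.384 against 0.739, 0.621 and 0.398. Zfyve27 (protrudin), which promotes neurite growth, had 0.449, 0.375 and 0.327 against 0.660, 0.469 and 0.433. In these 3 exons the lowest library was in set 1. The secretory-pathway protein Ergic3 had mean levels of 0.306 and 0.376. The translation regulator Cpeb4 had 0.412, 0.244 and 0.218 at its 24-base exon against 0.240, 0.413 and 0.210, with no common direction. In a less covered event of this exon, with a mean of 61.7 reads, mean levels were 0.557 in set 1 and 0.438 in set 2. The sets overlapped there too.

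Within a gene, microexons were used at different levels. Of the 325 genes, 294 had 1 tested microexon, 23 had 2 and 8 had 3 or more. Clasp2, which binds the growing ends of microtubules, had 5, with mean levels over all libraries of 0.053, 0.224, 0.614, 0.012 and 0.734 from the first to the last along the chromosome. Its relative Clasp1 had levels of 0.024, 0.304 and 0.692. Slit2, a secreted guidance cue, had 12-, 24- and 27-base exons at 0.913, 0.365 and 0.059. Dctn1, a subunit of the dynein activator dynactin, had a 15-base exon at 0.511 and 21-base exons at 0.068 and 0.014, the last of which share their skipping reads. Among all 475 exons, 10 share 1 end with another microexon, and their reads are not independent either.

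Related exons of related genes were not always used alike. The 21-base exons of Eif4g1 and Eif4g3 shown above have 16 of 21 bases in common, and their mean levels were 0.408 and 0.007. In Ank2 and Ank3, the ankyrins that anchor membrane proteins, 19 of 24 bases are shared and the levels were 0.989 and 0.007. The 24-base exons of Clasp1 and Clasp2 share 17 of 24 bases, and there the levels were close, at 0.692 and 0.734. In the receptor phosphatases Ptprf and Ptprs, 27-base exons with 14 bases in common had levels of 0.986 and 0.824.

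No regulator on the list passed a test of its junction total. The total is the number of reads on the most covered splicing event of a gene, scaled to library totals, and follows expression and splicing together. Of 41 listed regulators 34 were measured and 0 passed limma on log2(CPM + 1), against 1.06% of all 8281 genes, and 1 of the 34 had an unadjusted p under 0.05. Srrm4 was low, at 6.55, 10.2 and 8.12 CPM in set 1 and 10.2, 8.66 and 16.8 CPM in set 2, with overlapping sets and a log2 ratio of -0.44 ± 0.28 (SE, limma adjusted p = 0.702). Srrm3 had 17.7, 20.2 and 27.3 CPM against 22.7, 24.6 and 23.4 CPM, also overlapping. The repressor Ptbp1 had 634.0, 783.0 and 795.0 CPM against 626.0, 693.0 and 804.0 CPM, and its neuronal relative Ptbp2 had mean totals of 40.6 and 49.1 CPM. Hnrnpdl itself had 400.0, 429.0 and 433.0 CPM in set 1 and 470.0, 502.0 and 502.0 CPM in set 2, a log2 ratio of -0.22 ± 0.09 (SE, limma adjusted p = 0.392), and its reads were present in every library.

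Some regulators hold microexons of their own, which were looked at after their values were seen. The 16-base exon of Srrm4 had levels of 0.028, 0.0 and 0.028 in set 1 and 0.0, 0.2 and 0.094 in set 2, and the mean count was 45.0 reads. Its adjusted p was 0.0342 in the authors' deposited table and 0.745 in the quasi-binomial test. The 26-base coding exons of the kinases Srpk1 and Srpk2, which phosphorylate splicing factors, were nearly always included, at mean levels of 0.999 and 0.984. A less covered event of the Srpk1 exon, with a mean of 90.7 reads, differed by 0.055 (adjusted p = 0.0256 in the authors' deposited table). The 20-base exon of Srrm3 lay at 0.032. None of these lengths is divisible by 3.

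Genes that hold a tested microexon showed no general shift in junction total, with a median log2 ratio of -0.01 over 325 genes and 0.01 over all genes. Of these, 3 passed limma (0.923%, near the 1.06% of all genes), or 14 without library 1 of set 1. The 3 were higher in set 1, namely Flna (log2 ratio 0.78 ± 0.10 SE), Pdlim7 (1.05 ± 0.14), an actin-associated adaptor, and Myl6 (0.55 ± 0.10), a myosin light chain. In Flna the total was higher in set 1 while the level of its 24-base exon was 0.887 in set 1 and 0.897 in set 2.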

How the data were processed

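RNA-seq libraries of N2a cells, 3 wild-type and 3 labelled as hnRNP DL knockout, were made from Trizol-extracted total RNA with an NEBNext Ultra kit, per the labels' protocols. The submitters' processing notes name the build mm10 and the tools HISAT2 2.1.0, Bowtie2 2.2.3 and HTSeq 0.6.0 without saying what each did. The authors deposited an rMATS-style splicing table, with whole-number counts of junction reads per library, form lengths, an inclusion fraction, a p-value and an adjusted p, per the file headers; its caller version is not given in the sources used here. Recomputed levels matched the deposited ones within 0.0005. For microexons the skipping form had a length of 149 bases and the inclusion form 151 to 175 bases.

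Microexons and gene lists were chosen with earlier results of these data known. Events averaging at least 20 reads were tested with a moderated quasi-binomial test (R 4.3.3, limma 3.58.1): the binomial deviance between sets was divided by a dispersion fitted along the reads of whichever form was rarer, using events where these numbered at least 5, and held at or above 1, with Benjamini-Hochberg adjustment over all kinds of event. Its prior had infinite degrees of freedom, so an event's own spread does not enter. Several forms of the prior were run on these data, and their counts are given in the closing section. The planned edgeR and DESeq2 fits were not run, because the table's cells hold lists of counts; limma on logit levels (held between 0.01 and 0.99) and, for junction totals, on log2(CPM + 1) took their place. Both tests were tested on simulated data.

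Named exons had a mean count of 20 or more and were called by a test, called by the authors, among the 6 largest differences each way with non-overlapping sets, among the 12 most covered middle-level exons, or in listed genes; other exons are said to be singled out. Annotations and sequences came from GENCODE vM21 (GRCm38), and coordinates are 1-based. Columns carry no replicate number.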

Additional observations from a re-analysis of the deposited data

How the results depend on the processing

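The count of 1 called microexon event was 1 without a filter on counts, with a mean count of 50 or more and with no minimum change. It was 0 with limma on logit levels, 4 with the dispersion prior along the total count (Eef1d, Gnas, Eif4g1 and Mark3) and 0 with 1 event per exon, since the called Eef1d event is not the most covered of its exon. With prior minimums chosen after seeing the data it was 3 (1 or more reads on the rarer form: Eef1d, Gnas and Eif4g1), 1 (10 or more, Eef1d) and 0 (20 or more). It ran from 0 to 2 when each library was left out, 0 without library 2 of set 1 and 2 (Eef1d and Mark3) without library 1 of set 1. The median level over microexons, 0.605 in set 1 and 0.645 in set 2, was 0.644 and 0.686 with a mean count of 50 or more, and without each library it ran from 0.589 to 0.627 in set 1 and from 0.611 to 0.662 in set 2. The share that keeps the frame, 75.7%, was 90.7% among middle-level exons. No regulator passed under any alternative run, and host genes passing, 3, ran from 2 to 14 when each library was left out, with 14 without library 1 of set 1. The 84 of 117 frame-keeping, middle-level exons lower in set 1 ran from 72 to 92 without each library, and were 45 of 67 at levels from 0.20 to 0.80, 73 of 95 with a mean count of 50 or more and 79 of 111 with 1 exon per gene, settings chosen after seeing the data. The 15 named differences were also recomputed with a mean count of 50 or more, limma, pooled reads, all events of the exon summed and each library left out. Of these 136 values, 133 kept their side and direction and none reversed. Many of them could not reverse, so the tally says little about robustness. Limma and the higher count limit reuse the same difference, and leaving out 1 library cannot turn sets that lie apart. Pooled reads keep the adjusted p of the main fit, and summed events were not tested. Eef1d lost its call with limma and without library 2 of set 1, and Mark3 gained one without library 1 of set 1. These changes stand beside those with the forms of the prior given above. No paired analysis was possible because the columns carry no replicate number. Exons near 20 reads, such as that of Src, have levels set by a few reads, and differences of 0.10 are not resolved there.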
